A study of Homo sapiens with 3 samples.

Results

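YARS1, GARS1, SARS1 and IARS1 encode the cytosolic enzymes that attach tyrosine, glycine, serine and isoleucine to their tRNAs. They were taken by symbol from a deposited table of RNA levels in 95D cells, where they are 4 of 5932 listed genes and hold 43 of 14338 listed regions. Synthetases had already been seen to be low in the nutrient-deprived libraries of these data when the 4 genes were picked, so their ratios are given as a description without a test. They are set beside the 11 other listed synthetases whose symbols end in ARS1, which hold 68 regions.

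95D is an established human lung cancer line, labelled WT in every group. Each of 3 cultures gave 1 library. The glucose-deficient culture was kept for 48 h in DMEM without glucose, the glutamine-deficient culture for 48 h in DMEM without glutamine, and the control culture for 48 h in what the labels call control conditions. The deprived cultures had first spent 24 h in complete medium, and their media held 10% dialyzed serum. The sources used here do not say whether the control medium held dialyzed serum. The labels' protocol describes, for all 3 libraries, RNA captured from cell lysate with 50 pmol of the biotinylated long non-coding RNA DAMER as bait. The sample titles name RNA-Seq instead, so the labels do not settle whether the control library is a capture or a plain transcriptome. As each culture gave a single library, differences cannot be set against replicate spread and p-values are not given. A smaller amount of an RNA in the cells and a smaller share of it in the capture cannot be told apart.

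Aminoacyl-tRNA synthetases load each tRNA with its amino acid and so supply the ribosome. YARS1 and IARS1 belong to the structural class I of these enzymes, and GARS1 and SARS1 to class II. IARS1 sits in the large multi-synthetase complex of mammalian cells, whereas YARS1, GARS1 and SARS1 do not, and GARS1 also supplies the mitochondria. When amino acids run short or the endoplasmic reticulum is stressed, the integrated stress response raises translation of ATF4. ATF4 is a transcription factor that, in mammals, binds C/EBP-ATF response elements and switches on amino acid transporters, biosynthetic enzymes and many cytosolic synthetases.

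The letters TGATGNAA of that element, or TTNCATCA on the opposite strand, were looked for in the RefSeq promoters of GRCh38.p14, each spanning 250 bases before to 50 bases after a gene's start. Windows of 30 bases are shown because they set the promoters of GARS1 and IARS1 beside those of 5 other listed synthetases. Each is written on the strand of its gene, with the match in capitals.
GARS1: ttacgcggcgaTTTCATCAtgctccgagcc
IARS1: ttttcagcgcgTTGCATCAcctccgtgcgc
AARS1: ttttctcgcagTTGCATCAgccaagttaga
CARS1: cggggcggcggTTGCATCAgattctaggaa
MARS1: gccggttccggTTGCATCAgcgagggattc
TARS1: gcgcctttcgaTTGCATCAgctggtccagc
NARS1: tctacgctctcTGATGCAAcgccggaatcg
ASNS: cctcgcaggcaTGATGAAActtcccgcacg
ASNS, asparagine synthetase, is added as an amino acid enzyme gene under ATF4 control in human cells. Positions are counted from the RefSeq start of the promoter that holds the match, with bases before it negative. The GARS1 window lies at chr7:30594834-30594863 on the plus strand, and its match begins at position -33 of the promoter at chr7:30594628-30594927. Another GARS1 promoter, at chr7:30594485-30594784 with its start further upstream, held no match. The IARS1 window lies at chr9:92293692-92293721 on the minus strand, and its match begins at position -13. GARS1 and ASNS share the letters TGATGAAA, while the IARS1 match reads TGATGCAA, as do those of AARS1, CARS1, MARS1, TARS1 and NARS1. The match lies on the strand opposite to the gene in GARS1, IARS1, AARS1, CARS1, MARS1 and TARS1, and on the strand of the gene in NARS1 and ASNS.

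A match was found in 2 of the 3 genes with a promoter entry, since neither SARS1 promoter held one and YARS1 had no entry. Among the other listed ARS1 synthetases, 5 of 9 genes with an entry held a match. KARS1, QARS1, RARS1 and WARS1 did not, nor did any of the 3 listed cytosolic synthetases with other symbols, EPRS1, FARSA and FARSB. Of the listed ATF4 targets outside the synthetases, 4 of 15 with an entry held a match, ASNS among them. Over all promoters, 3.62% of 35116 held the motif, which is 4.46% of 27305 genes, and over the listed genes 2.87% of 3804 did. A match of these letters describes the promoter and shows neither binding nor control in these cells.

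Nearly all sequenced fragments of the deprived libraries came from ATF4 itself. Values are in RPM, in which reads are scaled to a fixed library total. ATF4 stood at 998517 RPM under glucose deficiency and 998557 RPM under glutamine deficiency, against 237 RPM in the control library. That is 99.9% of the fragments in each deprived library and 0.0237% of those in the control. Outside ATF4 and its pseudogenes, 12936 of 18775814 fragments remained under glucose deficiency and 14450 of 18301581 under glutamine deficiency, against 3780903 of 3781861 in the control. A count of 0 allows up to 3 fragments, which is 0.160 RPM under glucose deficiency, 0.164 RPM under glutamine deficiency and 0.793 RPM in the control library. This limit is the one-sided counterpart of the intervals given here, which are two-sided at 95% and so reach slightly higher for a count of 0. Both cover counting error only. The regions listed for all genes held 22.7% of control fragments, and the sources used here do not give how they were chosen. Outside ATF4 and its pseudogenes, listed regions held 858381.5 fragments in the control, 1157.5 under glucose deficiency and 160.5 under glutamine deficiency. Of 8 genes looked up for lung epithelium or carcinoma, 2 were listed, with the intermediate filaments KRT8 at 6.48 RPM and VIM at 77.7 RPM in the control. VIM is not specific to epithelium, and EPCAM, KRT18, KRT19, CDH1, NKX2-1 and SFTPC were not listed. Of leukocyte markers 1 of 4 was listed, the receptor CSF1R at 10.3 RPM in the control, and of fibroblast, endothelial and erythroid markers none of 4, 3 and 2. The remaining markers are not analysed here, so the label of the line was checked only this far.

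All 4 synthetases were well counted in the control library and had 0 fragments in both deprived libraries. The deposited values hold an offset of 0.5 fragment per region, and the values of the 4 genes in the deprived libraries consist of that offset alone. YARS1, the tyrosyl-tRNA synthetase (ENSG00000134684, chr1:32775237-32818153, minus strand in GRCh38), had 0.266 RPM under glucose deficiency and 0.273 RPM under glutamine deficiency, against 256 RPM in the control, where 963 fragments were counted. GARS1, the glycyl-tRNA synthetase (ENSG00000106105, chr7:30594681-30634033, plus strand), had 0.346 RPM under glucose deficiency and 0.355 RPM under glutamine deficiency, against 230 RPM in the control with 862 fragments. The values of both genes in the deprived libraries grow with their number of regions, not with any counted fragment. SARS1, the seryl-tRNA synthetase (ENSG00000031698, chr1:109213918-109238169, plus strand), had 0.240 RPM under glucose deficiency and 0.246 RPM under glutamine deficiency, against 178 RPM in the control with 668.5 fragments. IARS1, the isoleucyl-tRNA synthetase (ENSG00000196305, chr9:92210207-92293756, minus strand), had 0.293 RPM under glucose deficiency and 0.301 RPM under glutamine deficiency, against 128 RPM in the control with 478.5 fragments. Fragment numbers that end in 0.5 occur because 63.3% of the recovered control values were whole fragments and the others lay 0.5 fragment between whole numbers.

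**Figure D1:**
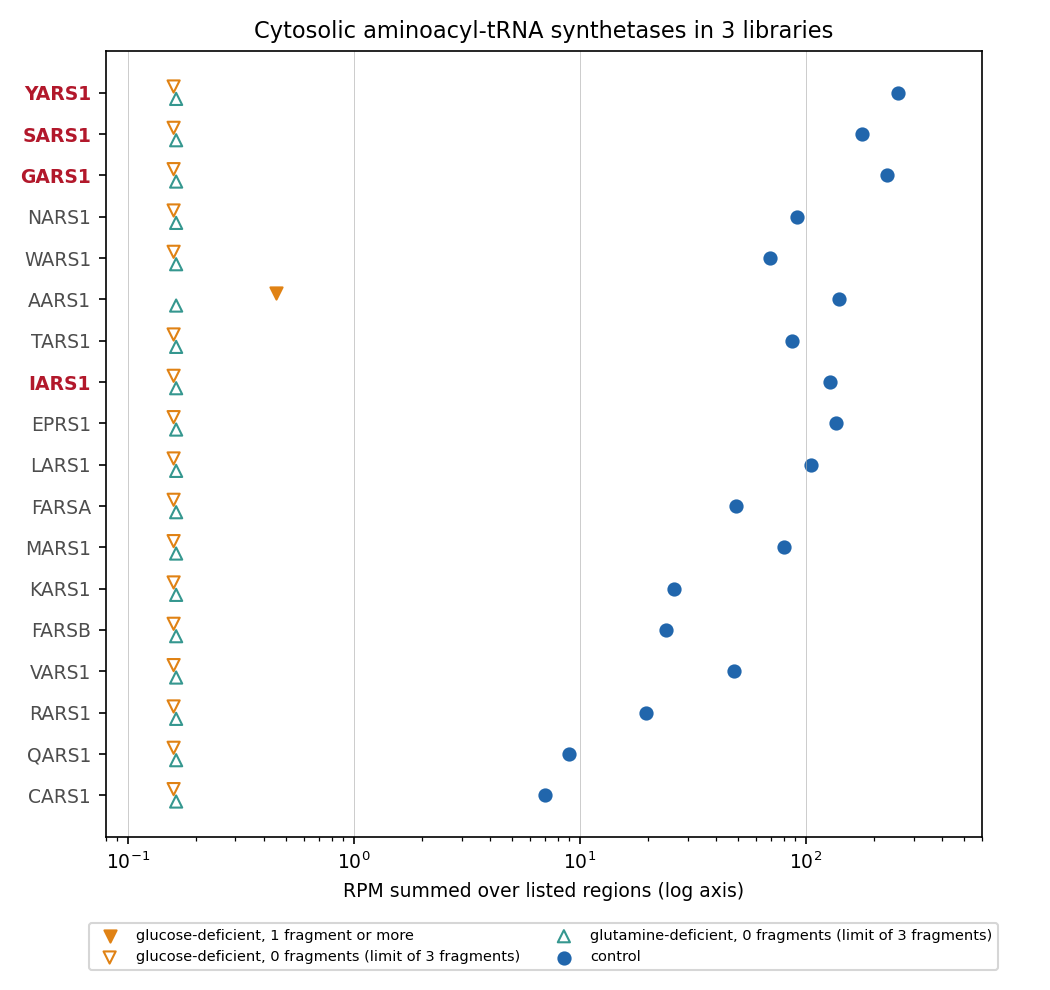
RPM summed over the listed regions (log axis) of 18 cytosolic synthetases, in order of control RPM per kb, with YARS1, GARS1, SARS1 and IARS1 in bold red. Open triangles stand at the limit of 3 fragments for genes with 0 fragments (0.160 RPM glucose-deficient, 0.164 RPM glutamine-deficient); the filled triangle is AARS1 at 0.453 RPM under glucose deficiency, and the blue control points run from 7.01 RPM to 256 RPM.

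Relative to all reads, each of the 4 genes was more than 2-fold lower in both deprived libraries. On the scale of log2(RPM + 1), the ratio of the glucose-deficient to the control library was -7.66 for YARS1, -7.42 for GARS1, -7.17 for SARS1 and -6.64 for IARS1. The ratios of the glutamine-deficient to the control library were -7.66 for YARS1, -7.41 for GARS1, -7.17 for SARS1 and -6.63 for IARS1. The near-equal ratios follow from a shared control library and from 0 fragments in both deprived libraries. With 3 fragments in place of 0, YARS1 was at least 1594-fold lower under glucose deficiency and at least 1553-fold lower under glutamine deficiency. For IARS1 these bounds were 792-fold under glucose deficiency and 772-fold under glutamine deficiency, and GARS1 and SARS1 lay between, so that the order of the bounds is the order of the control fragments. These bounds leave out the counting error of the control. With it, the 95% interval reached to 1294-fold lower for YARS1 and 642-fold lower for IARS1 under glucose deficiency, and to 1261-fold lower for YARS1 and 625-fold lower for IARS1 under glutamine deficiency.

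This count of 4 of 4 lower genes carries little about the synthetases, because 99.9% of 5931 listed genes were at least 2-fold lower under glucose deficiency and 99.9% of 5928 under glutamine deficiency. None of the 4 genes was higher, as against 0.118% of listed genes under glucose deficiency and 0.0675% under glutamine deficiency. The median log2 ratio was -7.30 over the 4 genes and -5.89 over the 11 other ARS1 synthetases under glucose deficiency, beside -3.92 over all listed genes. Under glutamine deficiency it was -7.29 over the 4 genes, -5.88 over the 11 others and -3.93 over all listed genes. The median control level stood in the same order, at 204 RPM over the 4 genes, 69.1 RPM over the 11 others and 14.8 RPM over all listed genes. Having 0 fragments was also common, at 90.9% of listed genes under glucose deficiency and 99.2% under glutamine deficiency. Among all listed genes whose summed control level fell within the range of the 4 genes, 128 to 256 RPM with the 4 included, 55.1% of 167 had 0 fragments under glucose deficiency and 97% of 166 under glutamine deficiency. Neither deprived library reached 1 RPM for any synthetase, so none entered the comparison of glucose-deficient with glutamine-deficient cells, in which 18.8% of 16 compared genes were higher and 0% lower.

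Region by region, all 43 regions of the 4 genes had 0 fragments in both deprived libraries, at 0.0266 RPM under glucose deficiency and 0.0273 RPM under glutamine deficiency. Over all genes, 4.63% of listed regions had at least 1 fragment under glucose deficiency and 0.352% under glutamine deficiency. The control values of these regions were the same where the table pairs them with either deprived library. None had the same values as the entry of another gene directly before or after it. Entries further apart were not compared, so sharing with an overlapping gene could be missed. The regions come without coordinates or lengths, so their values within a gene are given as an order of size and not as an order along the transcript.

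In the control library YARS1 had 10 regions, of which 3 stood apart at 50.0, 48.0 and 47.5 RPM. Its other regions ran through 27.5, 20.0, 15.5, 13.2, 13.0 and 12.6 down to 8.86 RPM. The median over the YARS1 regions was 17.7 RPM, and the top region held 19.5% of the gene's level. GARS1 had 13 regions, the highest at 63.7 RPM and the next at 37.4 RPM, while its lowest stood at 5.69 RPM around a median of 11.2 RPM. Its top region held 27.7% of its level and exceeded its lowest region 11.2-fold. SARS1 had 9 regions, with 52.8 and 45.6 RPM in the upper pair and 18.1 to 4.89 RPM in the others. That upper pair lay well above the SARS1 median of 13.9 RPM, and the top region held 29.6% of the gene's level. IARS1 had 11 regions between 24.2 and 4.36 RPM with a median of 11.2 RPM. Its top region held the smallest share among the 4 genes, 18.9% of its level, and lay 5.55-fold above its lowest region.

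**Figure D2:**
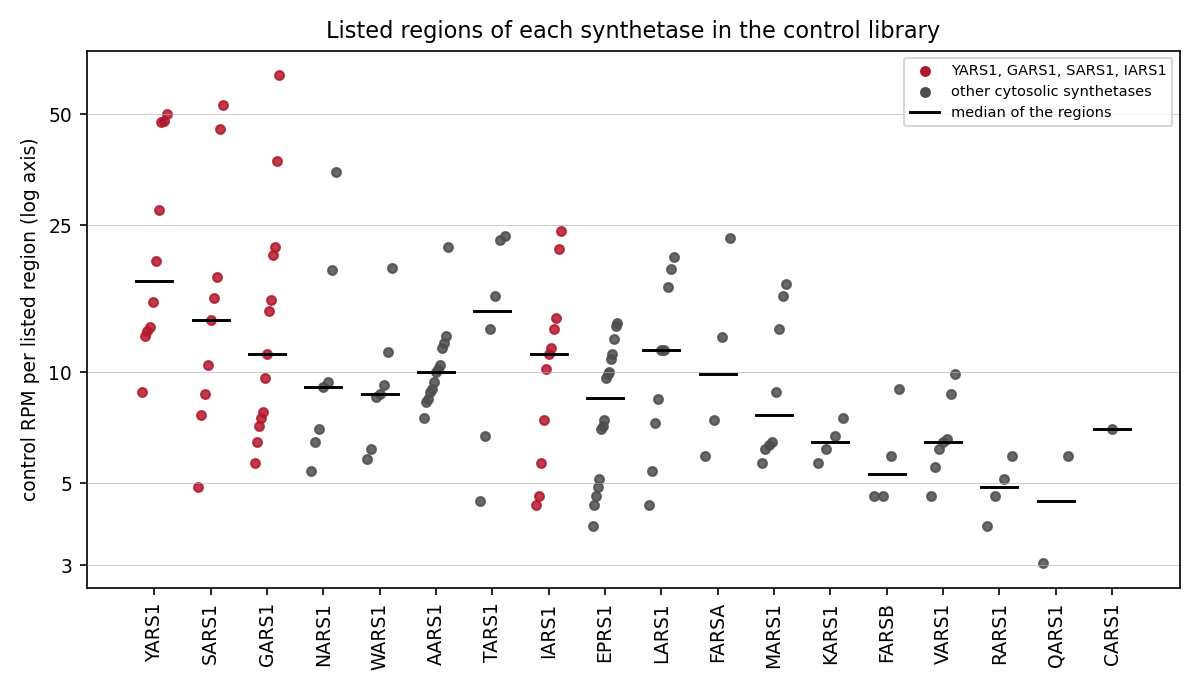
Control RPM of each listed region (log axis) for 18 cytosolic synthetases in order of control RPM per kb, with black bars for the median of a gene's regions. YARS1, SARS1 and GARS1 have regions at 50.0, 52.8 and 63.7 RPM, and IARS1 at 24.2 RPM; region lengths are not given, so levels are to be read within a gene.

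Levels of different genes were compared per kb of the longest annotated coding sequence. The level sums listed regions only, while the length is that of the whole coding sequence. Listed regions cover genes unevenly, with 10 regions for 13 exons in YARS1, 11 for 34 in IARS1 and 1 for 23 in CARS1. How far the choice of regions sets the order was not tested. On this scale the control level was 162 RPM per kb for YARS1 (interval 151 to 171), 111 for SARS1 (102 to 119), 104 for GARS1 (96.1 to 110) and 33.8 for IARS1 (30.5 to 36.6). YARS1 ranked 1, SARS1 2, GARS1 3 and IARS1 8 of 15 ARS1 synthetases. YARS1 exceeded SARS1 by a ratio of 1.46 (1.32 to 1.62), beyond counting error, whereas SARS1 and GARS1 did not separate (ratio 1.07, 0.965 to 1.18). Below GARS1 came NARS1, the asparaginyl-tRNA synthetase, at 55.4 RPM per kb, and the gap was a ratio of 1.87 (1.65 to 2.13). IARS1 did not separate from its neighbours, TARS1 above it (threonyl, ratio of TARS1 to IARS1 1.13, 0.982 to 1.31) and LARS1 below it (leucyl, ratio of IARS1 to LARS1 1.13, 0.991 to 1.30). Among 4507 listed protein-coding genes with a length, YARS1 lay at the percentile 97.8, SARS1 at 96.1, GARS1 at 95.7 and IARS1 at 79.0. The 4 genes were chosen on ratios that grow with the control level, so a high control level was built into the choice.

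The order depended on the length used. Per kb of all annotated exons, which include untranslated exons and those of minor transcripts, GARS1 came first at 55.3 RPM per kb, SARS1 followed at 46.4, and YARS1 ranked 4 at 31.2 and IARS1 6 at 17.3. YARS1 has 8212 nt of annotated exons around a coding sequence of 1584 nt, against 4152 nt and 2217 nt for GARS1. The place of YARS1 at the top therefore holds for coding length only.

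**Figure D3:**
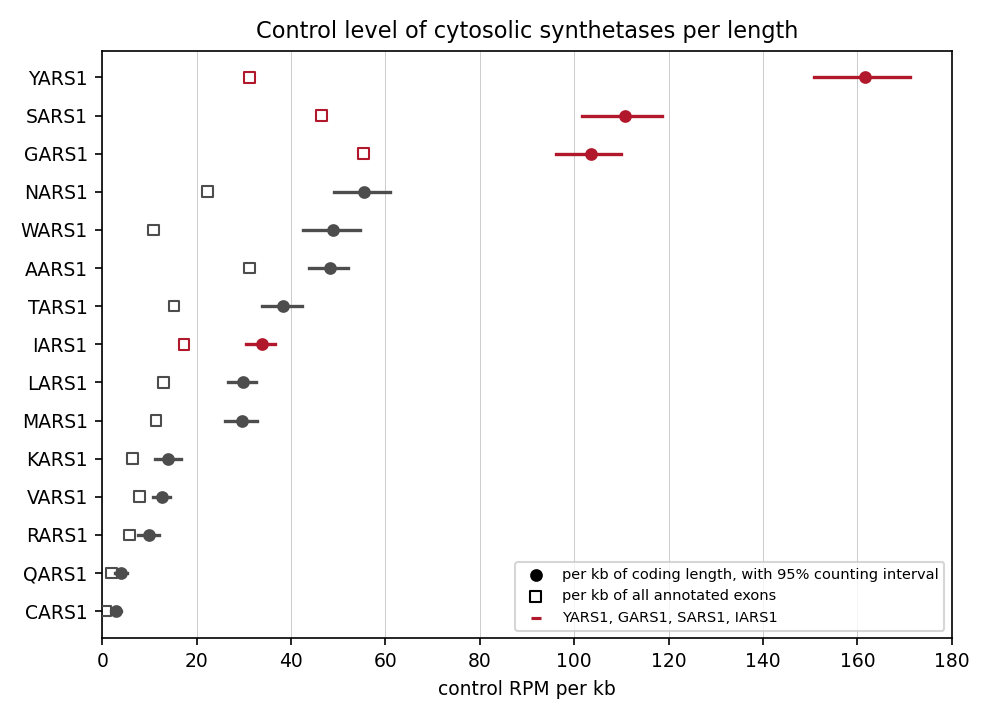
Control RPM per kb of 15 ARS1 synthetases, as filled points per kb of coding length with 95% counting intervals and as open squares per kb of all annotated exons, with YARS1, GARS1, SARS1 and IARS1 in red. By coding length YARS1 (162), SARS1 (111) and GARS1 (104) lie above all others, and by annotated exons GARS1 (55.3) is highest.

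The remaining cytosolic synthetases showed the same absence from the deprived libraries with 1 exception. AARS1, the alanyl-tRNA synthetase, had 2 fragments under glucose deficiency and 0 under glutamine deficiency, against 524 in the control. In RPM it had 0.453 under glucose deficiency and 0.355 under glutamine deficiency, against 140 in the control. Both fragments fell in the second-highest of its 13 regions, which had 0.133 RPM under glucose deficiency and 12.6 RPM in the control. The ratio of glucose-deficient to control RPM, with the offset taken off, was 0.000769 (9.29e-05 to 0.00279). IARS1 had 0 fragments against 478.5 in the control, so AARS1 differs from it by fewer fragments than the 3 that a count of 0 allows. All 11 other ARS1 synthetases, and EPRS1, FARSA and FARSB, which charge glutamate, proline and phenylalanine, were at least 2-fold lower in both deprived libraries.

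In the control library, WARS1 (tryptophanyl) stood at 48.9 RPM per kb, AARS1 at 48.3 and TARS1 at 38.2. EPRS1 stood at 29.8 RPM per kb, LARS1 at 29.8, FARSA at 29.8 and MARS1 (methionyl) at 29.7. All of these lay below YARS1, SARS1 and GARS1 and near or above IARS1. KARS1 (lysyl) stood at 14.0 RPM per kb, FARSB at 13.7, VARS1 (valyl) at 12.7, RARS1 (arginyl) at 9.88, QARS1 (glutaminyl) at 3.87 and CARS1 (cysteinyl) at 2.81. By promoter motif, the 7 genes with a match ranged from 2.81 to 104 RPM per kb with a median of 38.2, and the 5 without from 3.87 to 111 with a median of 14.0. The ranges overlap almost wholly, with SARS1 the highest of those without a match.

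The number of fragments that the 4 genes could have given was small. All listed regions outside ATF4, its pseudogenes and the mitochondrial genome kept 903 fragments under glucose deficiency per 761158 control fragments, or 1.19 per 1000 (1.11 to 1.27). At that rate the 4 genes, with 2972 control fragments, would have given 3.53 fragments under glucose deficiency, with 1.14 from YARS1, 1.02 from GARS1, 0.793 from SARS1 and 0.568 from IARS1. Their count of 0 allows up to 1.01 per 1000 at the limit of 3 fragments, which is below the interval of all listed regions, whereas its two-sided interval reaches 1.24 per 1000 and includes that rate. Other genes within their range of summed control level kept 1.27 per 1000 (1.07 to 1.50) under glucose deficiency, likewise above the limit of 3 fragments and overlapping the two-sided interval of the 4 genes. The 11 other ARS1 synthetases kept 0.785 per 1000 (0.0951 to 2.84), and all 18 cytosolic synthetases together 0.318 per 1000 (0.0385 to 1.15). The upper end for all 18 lies just under the 1.19 of all listed regions but inside the interval of that rate, and it rests on the 2 fragments of AARS1. Under glutamine deficiency all listed regions kept 0.0604 per 1000 (0.0442 to 0.0805), at which rate the 4 genes would have given 0.179 fragment. All 18 cytosolic synthetases had 0 fragments there per 6295 control fragments, which allows up to 0.477 per 1000 at the limit of 3 fragments and 0.586 per 1000 by the two-sided interval. Under glucose deficiency the limit of 1.01 per 1000 for the 4 genes lies below the 1.19 of all listed regions, and the limit of 1.24 does not. Synthetases had been seen to be low in these libraries before the 4 genes were picked. Their counts are therefore a description and cannot test whether they fall below other RNAs. Under glutamine deficiency a lower share was not detectable at this depth by either limit.

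**Figure D4:**
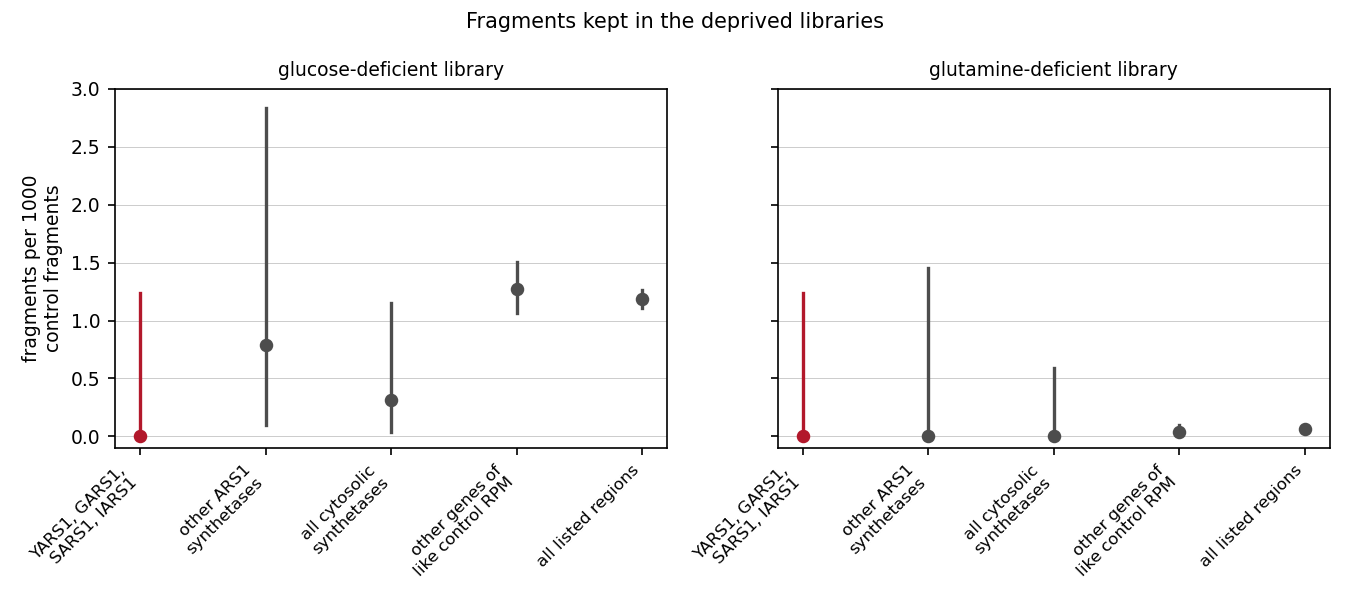
Fragments in each deprived library per 1000 control fragments, with 95% intervals that cover counting error only, for the 4 genes (red), the 11 other ARS1 synthetases, all 18 cytosolic synthetases, other genes of like summed control RPM and all listed regions. The 4 genes stand at 0 in both panels with a two-sided upper end of 1.24, beside a limit of 1.01 at 3 fragments, which is not drawn; the rate of all listed regions is 1.19 under glucose deficiency and 0.0604 under glutamine deficiency.

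The direction of the 4 genes outside ATF4 rested on the same few fragments. Taking the totals without ATF4 and its pseudogenes moved the median log2 ratio over all listed genes to 1.53 under glucose deficiency and 1.24 under glutamine deficiency, since genes at 0 were scored with 0.5 fragment. Most fragments in these totals of the deprived libraries lay outside the listed regions, which held 1157.5 under glucose deficiency and 160.5 under glutamine deficiency. On these totals 354 listed genes were lower and 3701 higher under glucose deficiency, and 601 lower and 3292 higher under glutamine deficiency, in place of 5924 and 7 and of 5924 and 4. Scored in this way the 4 genes remained at least 2-fold lower, from -2.72 for YARS1 to -1.71 for IARS1 under glucose deficiency and from -2.88 to -1.87 under glutamine deficiency. These scored values depend on the 0.5 fragment and are not bounds. With 3 fragments in place of 0, the ratio on the same totals was 0.911 for YARS1, 1.02 for GARS1, 1.31 for SARS1 and 1.83 for IARS1 under glucose deficiency. Under glutamine deficiency it was 0.815 for YARS1, 0.911 for GARS1, 1.17 for SARS1 and 1.64 for IARS1. The upper end of the two-sided interval was 1.12 for YARS1, 1.25 for GARS1, 1.62 for SARS1 and 2.26 for IARS1 under glucose deficiency. Under glutamine deficiency it was 1.00 for YARS1, 1.12 for GARS1, 1.45 for SARS1 and 2.02 for IARS1. By neither limit was any of the 4 genes lower by 2-fold over the whole of its range, beside 0.202% of listed genes under glucose deficiency and 0.422% under glutamine deficiency, and none was higher, beside 0.185% and 0.118%. A gene needed 1754 control fragments for glucose deficiency and 1570 for glutamine deficiency for 3 fragments to stand 2-fold below it on these totals, and YARS1, the best counted, had 963.

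The genes whose levels over the 3 libraries were most like those of each synthetase were picked by the smallest summed difference of log2(RPM + 1) among listed genes outside the synthetase lists. For YARS1 they were the RNA helicase gene DDX21 (difference 0.19, 280 RPM in the control) and HDLBP, which encodes the RNA-binding protein vigilin (0.19, 234 RPM). GARS1 was also closest to HDLBP (0.14), followed by the DNA methyltransferase gene DNMT1 (0.15, 216 RPM). SARS1 was close to the actin regulator gene ENAH (0.091, 174 RPM). IARS1 was closest to the splicing factor gene SF3B3 (0.0030, 128 RPM) and the chromatin remodeller gene CHD4 (0.010, 127 RPM). Apart from 1 fragment each of DDX21 and ENAH under glucose deficiency, these genes too had 0 fragments in both deprived libraries, so the likeness is one of summed control level and of number of regions over 3 libraries.

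Partners of the 4 enzymes were likewise uncounted in the deprived libraries, and those described here lay below all 4 in control level per kb of coding length. Of 17 mitochondrial synthetases 6 were listed, all lower than in the control and at 0 fragments in both deprived libraries. Among them IARS2, the mitochondrial counterpart of IARS1, had 28.4 RPM or 9.36 RPM per kb in the control. The 3 scaffold proteins of the multi-synthetase complex, to which IARS1 belongs, were all listed, with EEF1E1 at 22.8, AIMP2 at 17.1 and AIMP1 at 6.69 RPM per kb in the control. Of 6 genes for tRNA export, sensing of uncharged tRNA and tRNA amidation 3 were listed, the amidotransferase subunit GATC at 20.1, the tRNA exporter XPOT at 6.96 and GCN1, which helps the kinase GCN2 sense uncharged tRNA, at 0.924 RPM per kb in the control. All of these had 0 fragments in both deprived libraries.

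Other ATF4 targets were listed for 19 of 22 genes and all 19 were at least 2-fold lower in both deprived libraries, as were 99.9% of all listed genes in each. A fragment was counted under glucose deficiency for 4 of them and under glutamine deficiency for 0, beside 9.07% and 0.776% of all listed genes. These shares are not at a like control level, with a median of 65.3 RPM over the 19 targets and 14.8 RPM over all listed genes. Among listed genes at 128 to 256 RPM in the control, only 55.1% had 0 fragments under glucose deficiency. ASNS had 6 fragments under glucose deficiency and 0 under glutamine deficiency, against 252 in the control. On totals without ATF4 and its pseudogenes, its interval under glucose deficiency ran from 2.53 to 15.4 times the control. Whole intervals at least 2-fold higher on these totals were found for 0.185% of listed genes. Of the 6 fragments, 3 lay in a region with the same values as a directly neighbouring entry of another gene. The cationic amino acid transporter SLC7A1, the secreted glycoprotein gene STC2 and the translation inhibitor EIF4EBP1 had 1 fragment each under glucose deficiency and 0 under glutamine deficiency. SLC7A1 and STC2, with 788 and 671 control fragments, lay in the range of YARS1 to IARS1, so a single fragment separates them from the 4 synthetases.

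Reads from overlapping genes could enter some of these values, because the sources used here do not give whether counting used strand. S100PBP, on the opposite strand and itself listed, overlaps YARS1, and the divergent transcript GARS-DT, on the opposite strand, overlaps GARS1. The small RNA genes SNORA84 and MIR3651 lie within IARS1 on the same strand, and no annotated gene overlaps SARS1. Outside the 4 genes, the listed ATF4 target DDIT3 overlaps MARS1 on the opposite strand. Its only listed region and the highest MARS1 region, 21.6% of the MARS1 level, both held 65 control fragments at 17.3 RPM. Each had the same values as a directly neighbouring entry of another gene, so these fragments may be counted in both genes. GARS1 has a processed pseudogene, GARSP1, at chr17:55550931-55551649. It is not analysed here, and the part of any of these genes in the control values was not tested.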

How the data were processed

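Per the file headers, the authors deposited RPM. The authors aligned reads to hg38 with HISAT2 2.0.5, per the submitters' processing notes. The sources used here do not give how regions were called, counted and chosen. Each value of the deprived libraries, less 0.5 fragment, was a whole multiple of a fixed step for 99.96% (glucose-deficient) and 99.98% (glutamine-deficient) of regions, and for 63.3% in the control, where the rest ended in 0.5 fragment. Values were rounded to the nearest 0.5 fragment, and below 1000 RPM none lay more than 0.00203 (glucose-deficient), 0.0143 (glutamine-deficient) or 0.00244 (control) fragment from it. Fragments recovered in this way gave totals, intervals and limits. A count test across genes has no residual degrees of freedom with 1 library per group and was not run. For the glutamine-deficient sample the label points to the glucose column; its own file equals the glutamine column in all 14333 values, and that column was used.

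A gene's value is the sum of its regions. Ratios are differences of log2(RPM + 1), which understate the change of low genes. A gene was compared if it reached 1 RPM in at least 1 of the libraries set side by side, and differences of 2-fold were counted. Intervals are exact conditional binomial for ratios and exact Poisson for levels, at 95%, from fragments without the offset. Coding lengths, exons and coordinates are from GENCODE release 29 (GRCh38), and promoters from RefSeq. For each deprived library, 691 table entries name no gene and were left out of the gene counts. The text names all 4 genes, every other listed cytosolic synthetase, the 2 highest of each partner list and any listed partner with a fragment in a deprived library, and the 2 most similar genes for each of the 4. Some genes that this rule picks are not reported here. The 4 genes, lists and motif were chosen with earlier results of these data known. ASNS, DDIT3, SLC7A1, STC2 and EIF4EBP1, and the remaining members of the short lists, were named after their values were seen.

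Alternatives were pseudocounts of 0.5 and 5 RPM, no filter on low values, no offset, totals without ATF4, scaling of recovered fragments by TMM in edgeR 4.0.16 or by median of ratios in DESeq2 1.42.0, whole intervals, the highest region only, exon lengths, and control fragments rounded down. Steps were tested on simulated data. Scripts ran in R 4.3.3 and in Python 3.11.15 with scipy 1.17.1, numpy 2.4.6, matplotlib 3.10.9 and pandas 2.3.3.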

Additional observations from a re-analysis of the deposited data

How the results depend on the processing

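As scored, the 4 genes kept their direction and their 2-fold difference from the control under all pseudocounts, filters and scalings tried, except in 1 alternative. Under the other totals and scalings their 0 fragments were scored with 0.5 fragment, so those values are not bounds. With 3 fragments in place of 0, the ratio on totals without ATF4 ran from 0.911 for YARS1 to 1.83 for IARS1 under glucose deficiency. Under glutamine deficiency it ran from 0.815 to 1.64, so the 2-fold difference was not kept there. The exception joined totals without ATF4 to the whole counting interval and was chosen after seeing the data. It left 0 of 4 lower under glucose deficiency and 0 of 4 under glutamine deficiency. Of all 18 cytosolic synthetases, lower in the main values, 9 stayed lower under glucose deficiency and 10 under glutamine deficiency on totals without ATF4, and 0 in each with whole intervals as well. TMM left 11 lower under glutamine deficiency. Against 0 higher in the main values, 3 were higher under glucose deficiency and 2 under glutamine deficiency on totals without ATF4, and 2 in each library when scaled by TMM or by median of ratios. These higher values belong to genes at 0 fragments scored with 0.5 fragment.

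Per kb of all annotated exons the control level was 31.2 RPM for YARS1, 55.3 for GARS1, 46.4 for SARS1 and 17.3 for IARS1, and with the highest region alone, per kb of coding length, it was 31.6, 28.7, 32.8 and 6.39. Without the highest region of each gene, all listed regions kept 1.31 fragments per 1000 under glucose deficiency and 0.0893 under glutamine deficiency. The remaining 117 values of the comparisons stayed within 1.5 times the main count or within the main interval. Some of these are counts for glucose-deficient against glutamine-deficient cells in which no synthetase was compared, so they could not move. The 64 log2 ratios of single genes, as scored, kept their direction and their side of 2-fold only. The ratio of YARS1 under glucose deficiency was -7.66 in the main values, -3.62 by TMM and -2.72 on totals without ATF4. No paired analysis was possible because each group has 1 library. Depth outside ATF4, at 12936 and 14450 fragments in the glucose-deficient and glutamine-deficient libraries, limits every value of the deprived cultures. Only 1157.5 and 160.5 of these fragments lay in listed regions, so the 2 libraries were not equally deep there.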
